A study of Homo sapiens with 16 samples.

Results

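The 35 genes described here carry out homologous recombination and Fanconi repair in mouse cells, and their transcripts were counted in single cells of LPA1-T22 (T22) and LPA1-T127 (T127) mammary tumors. They were taken by gene symbol from a list, and all 35 were found among the 32285 genes of the count tables. By role they comprised the BRCA1 and BRCA2 complexes (Brca1, Bard1, Palb2, Brca2, Brip1), the strand invasion helpers (Rad51b, Rad51c, Rad51d, Xrcc2, Xrcc3), strand annealing and the RAD54 motors (Rad52, Rad54l, Rad54b), end resection (Rbbp8, Mre11a, Rad50, Nbn, Exo1), the RecQ helicases (Blm, Wrn), the Fanconi core complex with its partners (Fanca, Fancb, Fancc, Fance, Fancf, Fancg, Fancl, Fancm), the FANCD2 and FANCI pair (Fancd2, Fanci), the checkpoint kinases (Atm, Atr, Chek1, Chek2) and polymerase theta (Polq).

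Homologous recombination mends a broken chromosome by copying the intact sister chromatid, so it works mainly after DNA has been replicated. Nucleases trim the broken ends, BRCA1 with BARD1 and PALB2 brings in BRCA2, and the trimmed strand then searches for the matching sequence. The Fanconi core complex adds ubiquitin to FANCD2 and FANCI at crosslinked DNA and hands the lesion to the same machinery, and cells that lack this machinery are killed by inhibitors of PARP such as olaparib.

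T22 and T127 are mouse-derived syngeneic transplants, named for the LPA1 receptor whose expression in the mammary epithelium of transgenic mice gave rise to them, and the study describes T22 as sensitive and T127 as resistant to PARP inhibition, with Brca1 and Brca2 intact in both. Pieces of tumor were placed in the mammary fat pad of female FVB mice bought at 6 weeks of age. In the long-term experiment, T22 and T127 were grown alone or in opposite fat pads of 1 mouse and were given vehicle or 50 mg/kg of oral olaparib daily for 20 days. In the short-term experiments, T22 tumors and, apart from them, T127 tumors were given vehicle or the same daily dose for 4 or 8 days. Cells of several tumors were tagged, pooled and captured together in 8 long-term pools, 4 short-term T22 pools and 4 short-term T127 pools. Treated and vehicle tumors entered each pool, and the tables carry no tumor of origin for a cell, so levels could not be split by olaparib. Each model is 1 transplant line, and its values stand for that line. A pool is a capture and not a tumor, each experiment therefore counted as 1 sample, and no test between conditions was made.

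After removal of shared barcodes, the tables held 25723 long-term, 15094 short-term T22 and 8007 short-term T127 cells. Long-term pools 1 and 2 shared 3939 barcodes, pools 1 and 3 shared 987 and pools 2 and 3 shared 1082, whereas other pairs shared at most 8, and whether these 3 pools are separate captures is not given in the sources used here. Only the deepest copy of a shared barcode was kept, which took away 45.9% of cells in pool 1 and 45.5% in pool 2. Median UMIs per cell ranged from 3105 to 11712 over the long-term pools, from 7730 to 8528 over the short-term T22 pools and from 22712 to 26017 over the short-term T127 pools. The deposited cell labels were used. Of the epithelial markers, Epcam stood at 2780 CPM in long-term Malign_3, 922 in Malign_2, 3.30 in Malign_0 and 5.87 in Malign_1, whereas Krt8 was counted in all 4 (2000, 229, 735 and 480 CPM). The fibroblast gene Dcn stood at 55.4, 772, 4305 and 4324 CPM in the same order and Acta2 at 7275 CPM in Malign_2. The deposited malignant labels, which the study drew from copy number calls, thus also held Dcn, least in Malign_3, and Malign_2 held Acta2. Over long-term T127 cells the fibroblast markers Dcn, Acta2 and Col1a1 summed to 4327 CPM, little more than Dcn alone.

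The repair genes were sparse transcripts. Together they gave 86633 UMIs in the long-term cells, 82553 in the short-term T22 cells and 74200 in the short-term T127 cells, or 284, 496 and 355 CPM (counts per 1000000, the UMIs of the genes relative to all UMIs of the same cells). Rad50, which encodes the ATPase of the MRE11 complex, supplied 52821 of these UMIs (21.7%), Rbbp8, encoding the resection factor CtIP, 10.8%, Atm 6.1% and Nbn 6.0%, whereas the core complex gene Fancc supplied 330 UMIs in all. Levels were not compared between genes, because intronic reads were counted and long genes collect more of them. All intervals cover counting error only.

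In every experiment the proliferating labels held the most repair transcripts (see the plot of summed levels by label). Among 21 long-term labels with at least 50 cells, the proliferating macrophages (Macro-MKI67) stood first at 597 CPM (pools 542 to 641), followed by gamma delta T cells (Tgd) at 525 CPM (449 to 708). The T22 malignant labels Malign_2 and Malign_3 lay near the middle of this order, at 397 CPM (349 to 455) and 376 CPM (351 to 408). The T127 malignant labels lay near or at its end, with Malign_0 at 245 CPM (229 to 257) and Malign_1 at 206 CPM (191 to 221). Neighbors in the long-term order overlapped in pool range throughout. In the short-term T22 pools, proliferating T cells (Tprf-MKI67) reached 1099, 1120, 1231 and 1037 CPM and Macro-MKI67 834, 921, 832 and 866 CPM, and the pool ranges of both labels lay apart from that of the next label. The short-term T127 pools placed Macro-MKI67 first at 625, 779, 847 and 735 CPM, Malign_0 at 384, 380, 371 and 354 CPM and Malign_1 at 342, 305, 342 and 314 CPM. There Macro-MKI67 overlapped in pool range with the next label, NK cells (377 to 645 CPM). Cells with Mki67, a gene expressed by cycling cells, made up 89.5% of long-term Macro-MKI67, 28.0% of Malign_2, 20.9% of Malign_3, 8.3% of Malign_0 and 5.0% of Malign_1.

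**Figure D1:**
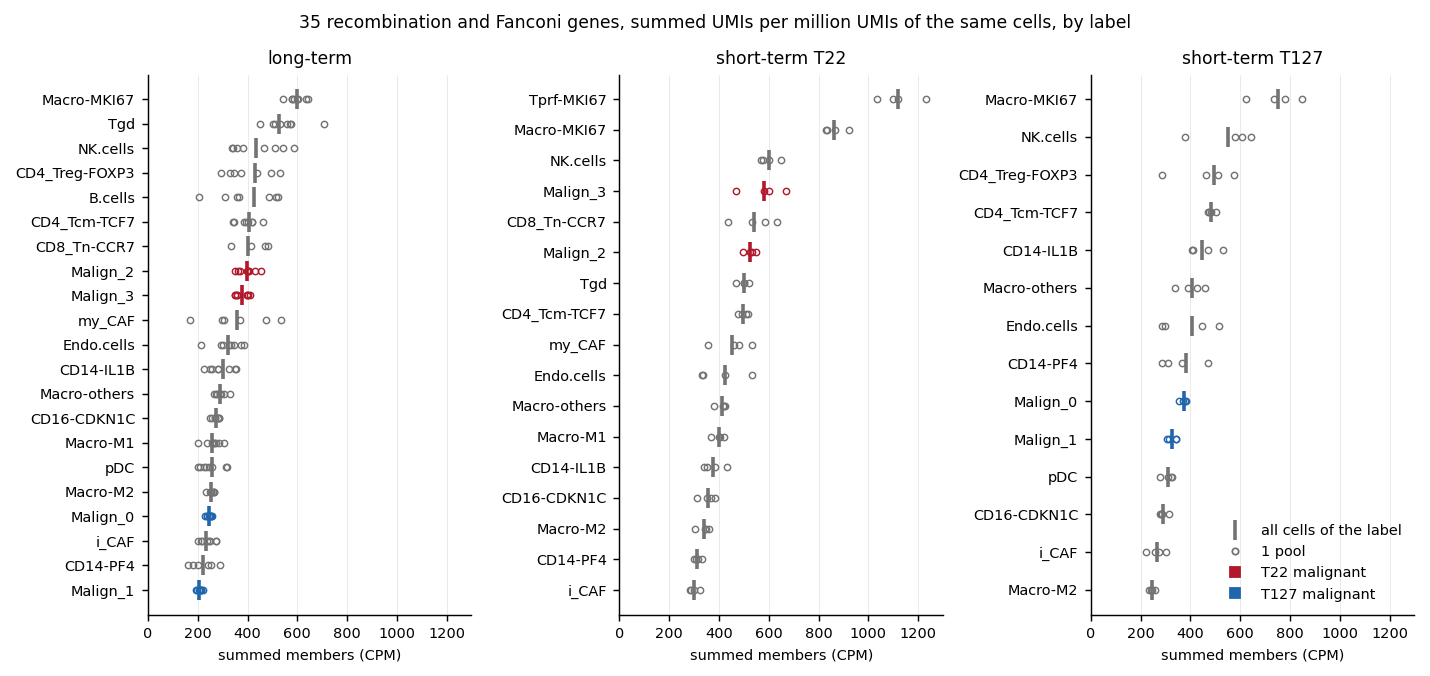
Summed level of the 35 repair genes (CPM, linear axis from 0) in each cell label with at least 50 cells, with 1 panel for each experiment. A tick marks all cells of a label, circles mark pools, red marks T22 and blue T127 malignant labels. Macro-MKI67 stood at 597 CPM in the long-term cells against 397 CPM for Malign_2 and 206 CPM for Malign_1, and Tprf-MKI67 stood at 1121 CPM in the short-term T22 cells.

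Single genes did not all follow this order. Across the 21 long-term labels, the level of Chek1, the kinase that restrains stressed replication, tracked the summed S-phase list most closely (Pearson r = 0.94 of log2(CPM + 1)), followed by Brip1 (0.93) and Brca2 (0.87), whereas Fance (-0.10), Rad51b (-0.14) and Rad51d (-0.18) did not track it. These coefficients describe labels that share libraries and differ in depth, and 8 of 35 genes exceeded 0.7 while 7 fell under 0.3. Of the 35 genes, 12 were highest in Macro-MKI67, 4 in naive CD8 T cells and 4 in regulatory T cells. The last 2 labels held 81 and 113 cells. Ranks there such as those of Polq (6.51 CPM in CD8) and of Fancf and Fancg (8.76 CPM in regulatory T cells) rested on few UMIs. The share of all genes highest in each label is not given here.

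Atm, the kinase that signals chromosome breaks, was high in lymphoid labels. In the long-term cells it stood at 49.9 CPM in CD8_Tn-CCR7, 40.5 in B cells, 39.4 in CD4_Treg-FOXP3 and 33.1 in NK cells, against 11.5 in Macro-M1 and 12.8 in Macro-M2. The short-term T127 pools also had lymphoid labels above macrophages, with 77.9 CPM in NK cells and 64.6 in CD4_Tcm-TCF7 against 13.8 in Macro-M2. In the short-term T22 pools the values were 56.3 and 63.8 against 22.6 CPM. Rbbp8 showed another pattern, with 94.2 CPM in long-term Malign_2, 44.7 CPM in Macro-MKI67 as the next label and 4.31 CPM in plasmacytoid dendritic cells. Chek2, the effector kinase downstream of ATM, was high in endothelial cells (29.8 CPM), Malign_2 (28.6), Macro-MKI67 (25.4) and Malign_3 (22.7). Other macrophages lay close to these, with Macro-others at 21.7 CPM and Macro-M1 at 23.7 CPM in Mki67-positive and 22.5 CPM in Mki67-negative cells. Chek2 was low in Malign_0 (3.00) and Malign_1 (1.49), and no UMI of it was found in plasmacytoid dendritic cells.

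Summed over the 35 genes, T22 malignant cells held more repair transcripts than T127 malignant cells in both experiments, with genes of unequal weight in the sum. In the long-term pools, where both models were captured together, the summed level in T22 (Malign_2 and Malign_3, 2259 cells) had a lowest, median and highest pool of 354, 398 and 420 CPM, and in T127 (Malign_0 and Malign_1, 4603 cells) of 217, 230 and 241 CPM. The pools did not overlap, T22 was higher in 8 of 8 pools (pools 4 to 8 included), and the ratio was 1.69 (95% interval 1.66 to 1.73). Without long-term pools 1 to 3 the ratio was 1.62. In the short-term pools, where model and pool cannot be told apart, the sums were 531 and 351 CPM, the pools spanned 510 to 544 and 336 to 364 CPM, and the ratio was 1.51 (1.49 to 1.53). Much of the short-term gap lay in Rbbp8 (128 against 30.3 CPM), Nbn (44.1 against 17.6) and Chek2 (31.4 against 3.55). Rad50, the most counted gene, ran the other way (76.1 against 95.1 CPM). Sums without these genes are not given in this comparison, except without Rad50. A gene was called when its ratio reached 1.5 in either direction and the pool ranges did not overlap, among genes with at least 50 UMIs in the cells compared. In the long-term cells 14 of 35 repair genes were called higher in T22 and 1 lower, against 26.5% and 24.3% of 13582 genes. Without pools 1 to 3 the counts were 17 and 0, for which the shares of all genes are not given here. In the short-term cells 16 were called higher and 6 lower, against 32.6% and 30.7% of 14490 genes. The median log2 ratio of the repair genes was 1.09 in the long-term and 0.53 in the short-term cells, beside 0.05 and 0.00 over all genes. Called higher in both experiments were 13 genes, namely Blm, Brip1, Chek1, Chek2, Fanca, Fancb, Fanci, Nbn, Rad51b, Rad54b, Rad54l, Rbbp8 and Xrcc3, and Fance was called lower in both. The share of all genes called in both experiments is not given here, so no excess can be read from these counts.

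**Figure D2:**
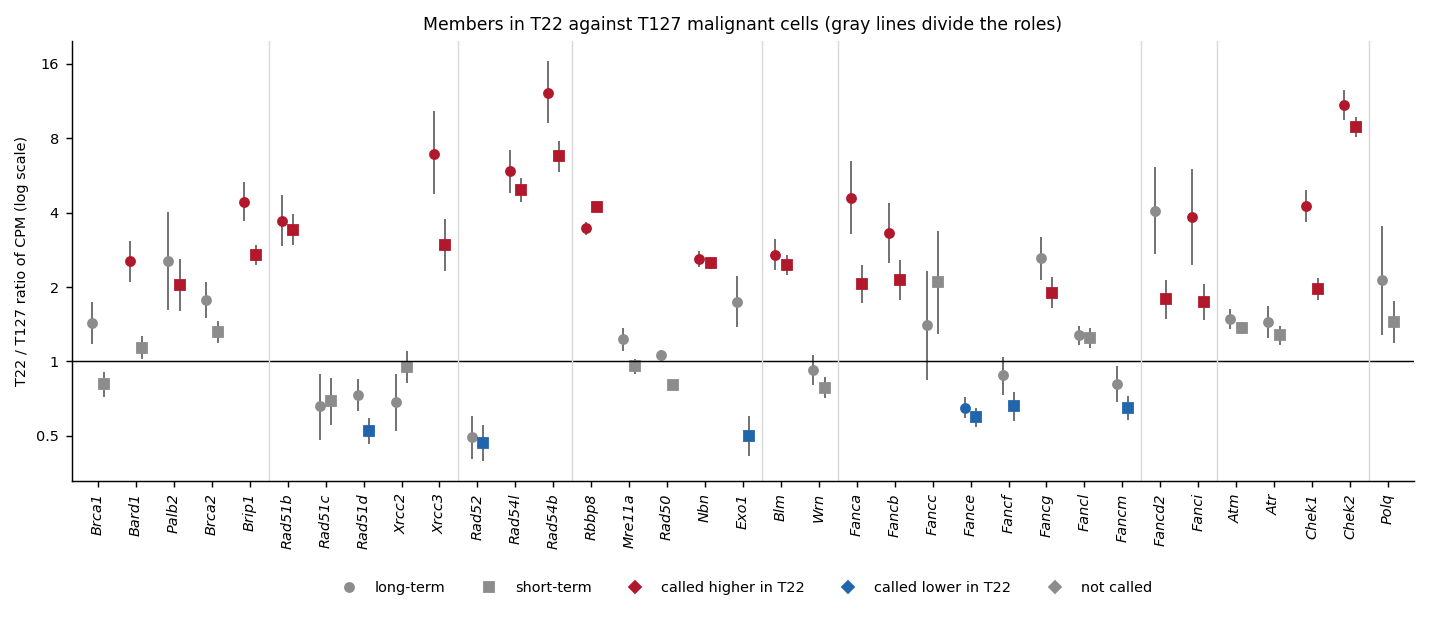
Ratio of CPM in T22 to T127 malignant cells for each repair gene on a log axis, with circles for the long-term and squares for the short-term cells, bars for 95% counting intervals and gray lines between roles. Red marks genes called higher in T22, blue genes called lower and gray genes not called. Rad54b (12.2 and 6.75) and Chek2 (10.9 and 8.86) lay farthest to the T22 side, and Rad52 (0.495 and 0.469) farthest to the T127 side in both experiments.

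Among the BRCA1 and BRCA2 complexes, the helicase gene Brip1 differed most between the models. Its long-term pools had a lowest, median and highest level of 5.81, 7.56 and 13.2 CPM in T22 and of 0.721, 2.04 and 2.30 CPM in T127, and the ratio was 4.43 (3.69 to 5.32). The short-term pools gave 13.8, 13.9, 16.3 and 14.9 CPM in T22 and 6.41, 5.39, 5.19 and 4.65 CPM in T127, with a ratio of 2.70 (2.45 to 2.97). The pools of the models were apart in both experiments. Brca1 itself was not called in either, with 4.22 against 2.95 CPM long-term (1.43) and 6.95 against 8.61 CPM short-term (0.807). Brca2 was not called either, at ratios of 1.77 and 1.31, and its long-term pools overlapped. Bard1, the partner of BRCA1, was called higher in T22 long-term (2.54) and not short-term (1.14), and Palb2, which joins BRCA1 to BRCA2, short-term (2.04) and not long-term (2.55, pools overlapping).

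The strand invasion helpers were divided. Xrcc3 ranged from 1.21 through a median of 2.32 to 4.84 CPM in long-term T22 pools and from 0.216 through 0.390 to 0.512 CPM in T127 pools, a ratio of 6.93 (4.76 to 10.3). In the short-term pools it stood at 2.86, 2.33, 2.77 and 1.99 CPM in T22 and at 0.994, 0.794, 0.790 and 0.771 CPM in T127 (2.96, 2.33 to 3.77). Neither set of pools overlapped. Rad51b was likewise called higher in T22 at ratios of 3.71 and 3.41. Rad51d ran the other way, with short-term levels of 6.36, 5.24, 4.83 and 5.97 CPM in T22 below 10.2, 11.3, 10.7 and 10.8 CPM in T127 (0.524, 0.462 to 0.592, called lower), whereas its long-term ratio of 0.731 fell short of the limit. Rad51c (0.658 and 0.691) and Xrcc2 (0.686 and 0.951) were not called.

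The RAD54 motors, which drive strand exchange, held the largest long-term ratio of the 35 genes. Rad54b had a lowest, median and highest long-term pool of 5.63, 6.86 and 9.18 CPM in T22 against 0.144, 0.606 and 0.983 CPM in T127, a ratio of 12.2 (9.21 to 16.5). Its short-term pools stood at 10.7, 8.22, 11.5 and 12.0 CPM against 1.97, 1.54, 1.31 and 1.40 CPM (6.75, 5.83 to 7.83). Rad54l was called higher at 5.87 and 4.93. Rad52, which anneals single strands, was lower in T22. It stood at 3.43, 3.13, 3.40 and 2.94 CPM in the short-term T22 pools and at 6.43, 6.51, 7.27 and 7.38 CPM in the T127 pools (0.469, 0.397 to 0.551, called lower). The long-term ratio was 0.495 (0.403 to 0.604), but it was not called, since 1 T22 pool at 5.40 CPM reached into the T127 range of 5.28 to 7.08 CPM.

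In end resection, Rbbp8 separated the models most clearly. Long-term pools ranged from 65.0 through a median of 68.3 to 75.6 CPM in T22 and from 16.7 through 20.4 to 23.1 CPM in T127, a ratio of 3.46 (3.26 to 3.66). Short-term pools stood at 120, 135, 133 and 125 CPM against 32.2, 29.3, 31.3 and 28.2 CPM (4.21, 4.06 to 4.37). Nbn, the NBS1 subunit of the MRE11 complex, was called higher in T22 at 2.59 and 2.51. Its 2 partners were not, with Mre11a at 1.23 and 0.955 and Rad50 at 1.06 (1.02 to 1.11) and 0.80 (0.772 to 0.828). The exonuclease gene Exo1 was not called long-term (1.75) and was called lower in short-term T22, at 3.71, 2.84, 1.58 and 2.23 CPM against 5.86, 4.90, 5.67 and 4.44 CPM (0.501, 0.416 to 0.599).

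The RecQ helicases differed from each other. Blm, which dissolves crossed strands, had a lowest, median and highest long-term pool of 7.31, 9.89 and 12.7 CPM in T22 and of 3.12, 3.75 and 4.24 CPM in T127 (2.71, 2.34 to 3.13). Its short-term pools stood at 15.5, 13.8, 14.9 and 14.7 CPM against 7.08, 5.56, 5.87 and 5.42 CPM (2.45, 2.23 to 2.69). Blm pools were apart in both experiments, and Wrn was called in neither (0.924 and 0.783).

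Within the Fanconi core complex, Fanca and Fancb were called higher in T22 and Fance lower in both experiments. Fanca ranged from 1.21 through a median of 2.31 to 4.46 CPM in long-term T22 pools and from 0.216 through 0.442 to 1.06 CPM in T127 pools (4.6, 3.28 to 6.49). The short-term pools gave 3.64, 3.49, 3.56 and 4.85 CPM against 2.47, 1.40, 1.96 and 1.62 CPM (2.06, 1.72 to 2.46). Fancb followed at 3.30 and 2.14. Fance, which joins the core complex to FANCD2, had long-term pools of 9.86, 13.5 and 15.9 CPM (lowest, median, highest) in T22 and of 17.9, 20.3 and 21.7 CPM in T127 (0.651, 0.590 to 0.717). Its short-term pools stood at 12.1, 12.9, 10.8 and 11.1 CPM against 18.7, 20.3, 22 and 18.2 CPM (0.594, 0.544 to 0.647). Subunits of the same complex thus lay on opposite sides of 1 with pools apart. Fancg was called higher only in the short-term cells (1.89, against 2.61 with touching pools long-term), Fancf (0.659) and the helicase gene Fancm (0.648) were called lower only there, and Fancl, which carries the ubiquitin ligase activity, and Fancc were not called. Of the pair that receives the ubiquitin, Fanci was called higher in T22 in both experiments. Its long-term pools ranged from 0.779 through 1.46 to 1.70 CPM in T22 and from 0.144 through 0.359 to 0.507 CPM in T127 (3.82, 2.46 to 6.00), and its short-term pools were 3.64, 4.07, 4.11 and 4.70 CPM against 2.85, 2.15, 2.42 and 1.95 CPM (1.75, 1.47 to 2.06). Fancd2 was called in the short-term cells at 1.79, and its long-term ratio of 4.07 rested on 67 and 42 UMIs with overlapping pools.

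Chek2 showed the largest difference among the checkpoint kinases. It ranged from 22 through a median of 24.8 to 32.4 CPM in long-term T22 pools and from 1.5 through 2.46 to 2.74 CPM in T127 pools (10.9, 9.47 to 12.6). Its short-term levels were 29.8, 31.2, 33.1 and 31.8 CPM against 4.21, 3.01, 3.72 and 3.16 CPM (8.86, 8.08 to 9.73). Chek1 was called higher at 4.26 and 1.96, whereas Atm (1.49 and 1.36) and Atr (1.45 and 1.28) were not called. Polq, whose polymerase joins ends by short matching sequences when recombination fails, rested on 31 and 37 long-term UMIs, with pools of 0 to 1.79 CPM in T22 and 0 to 0.720 CPM in T127 that overlapped (2.14, 1.28 to 3.54). In the short-term pools it stood at 2.14, 2.76, 2.77 and 3.5 CPM in T22 and 2.24, 1.91, 1.96 and 1.52 CPM in T127, again overlapping (1.44).

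**Figure D3:**
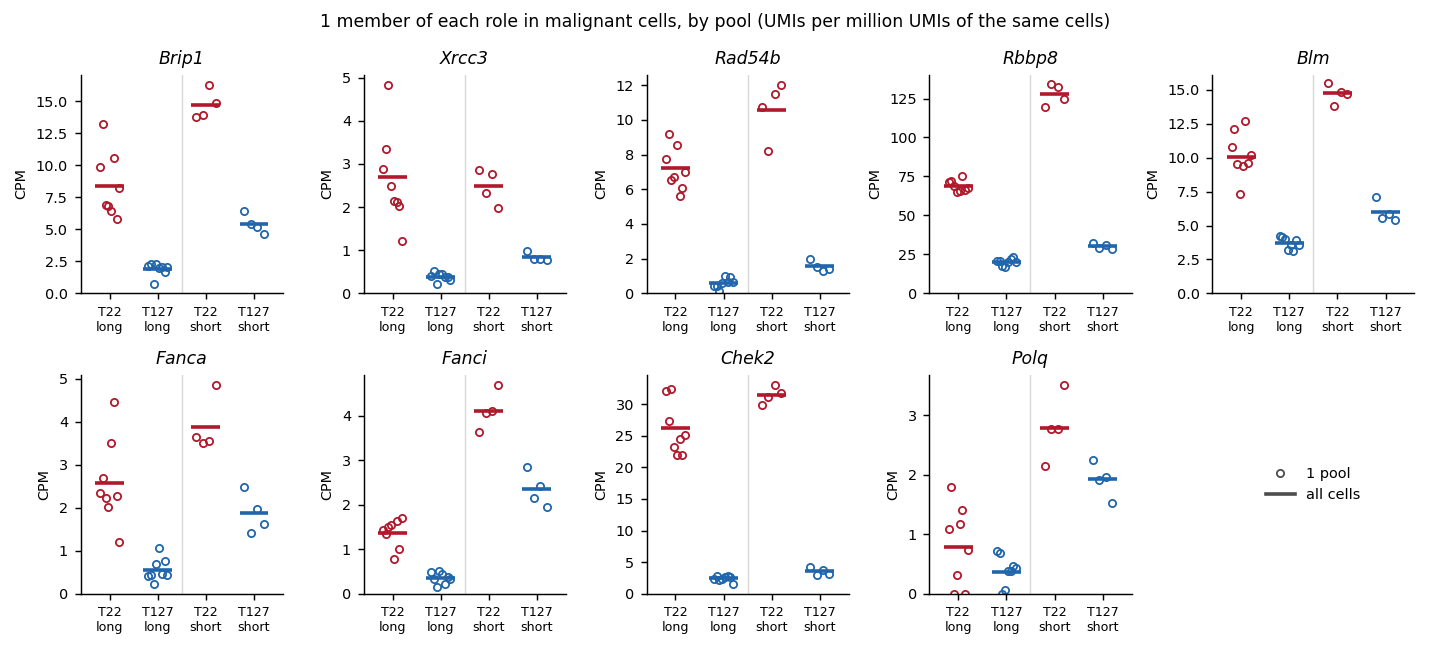
CPM by pool in T22 and T127 malignant cells for the gene of each role with the largest called ratio and for Polq, with 1 panel per gene and 1 circle per pool. Brip1, Xrcc3, Rad54b, Rbbp8, Blm, Fanca, Fanci and Chek2 have T22 pools above T127 pools in both experiments, and Polq overlaps in both.

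The share of cycling cells moved with these differences. Mki67 itself stood at 57.5 CPM in T22 and 11.4 CPM in T127 malignant cells of the long-term pools and at 230 and 82.7 CPM in the short-term pools, and median UMIs per cell were 15599 against 20068 and 24802 against 33836. Within Mki67-positive cells the summed repair level was 580 CPM in T22 and 433 CPM in T127 long-term, with pools of 519 to 621 and 375 to 481 CPM and a ratio of 1.34 (1.29 to 1.39). The short-term values were 692 and 589 CPM, with pools of 661 to 718 and 569 to 615 CPM (1.17, 1.15 to 1.20). Within Mki67-negative cells the sums were 305 and 207 CPM long-term (1.47) and 384 and 269 CPM short-term (1.42). Pools of the models stayed apart in all 4 of these comparisons, at ratios below those of all cells. Single genes weighed unequally in these sums. In short-term Mki67-positive cells, Rbbp8 stood at 134 CPM in T22 and 51.8 CPM in T127, Nbn at 49.5 and 20.0, and Chek2 at 43.8 and 11.6. Rad50 ran the other way, at 94.1 and 131 CPM. Sums without Rbbp8, Nbn or Chek2 are not given here. The summed S-phase list stood at 779 and 741 CPM in long-term Mki67-positive T22 and T127 cells and at 288 and 178 CPM in Mki67-negative cells. Short-term it stood at 757 and 873 CPM in the positive and 253 and 201 CPM in the negative cells, so among short-term positive cells it was lower in T22. The part of cycling in the model differences was not tested.

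Fewer repair genes, and a smaller share of all genes, were called higher in T22 within these classes than in all cells. In Mki67-positive cells the counts called higher lay near the shares of all genes. In Mki67-positive cells 7 of 32 repair genes were called higher in T22 and 0 lower long-term, against 20.4% and 17.4% of all genes, and 9 of 34 higher and 7 lower short-term, against 30.5% and 30.9%. In Mki67-negative cells 10 of 31 were called higher and 2 lower long-term, against 24.3% and 24.6%, and 11 of 31 higher and 6 lower short-term, against 29.6% and 32.7%. Chek2 was called in all 4, with ratios of 2.93 and 3.78 in the positive and 17.8 and 25.5 in the negative cells, where T127 stood at 1.07 CPM long-term and 0.786 CPM short-term. Rad54b gave 4.32 and 3.77 in the positive and 12.3 and 6.01 in the negative cells. Rbbp8 gave 1.86 and 2.59 in the positive and 3.69 and 5.30 in the negative cells. Each of these 3 genes was therefore higher in T22 in both classes. Brca1 pointed the other way among the positive cells, at 9.61 CPM in T22 and 19.6 CPM in T127 long-term (0.490, 0.385 to 0.620, pools overlapping) and at 13.0 and 28.5 CPM short-term (0.457, called lower). Bard1 (17.8 against 27.1 CPM, 0.656) and Exo1 (4.74 against 16.4 CPM, 0.289) were also called lower in short-term Mki67-positive T22 cells.

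Marker levels of other cell types in the malignant cells were as follows. The 4 epithelial markers summed to between 3494 and 4319 CPM over long-term T22 pools and to between 1024 and 1392 CPM over T127 pools, and the 3 fibroblast markers to between 3243 and 6674 and between 3968 and 4712 CPM. In the short-term pools the epithelial sum lay between 1530 and 1781 CPM in T22 and between 1742 and 1980 CPM in T127, and the fibroblast sum was 4939 CPM in T22 and 3091 CPM in T127 with pools apart. The leukocyte marker Ptprc stood at 6.87 and 3.56 CPM long-term and at 10.4 and 1.43 CPM short-term. None of these markers was at 0 over a model, and their part in the repair gene differences was not tested.

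Within a model, between 1 and 9 repair genes were called between the malignant labels. In the long-term T22 cells the sum was 376 CPM in Malign_3 and 397 CPM in Malign_2 with overlapping pools, and of 32 genes 0 were called higher in Malign_3 and 1 lower, against 10.7% and 12.1% of all genes. That gene was Rbbp8, which ranged from 25.9 through a median of 30.4 to 37.3 CPM in Malign_3 and from 85.0 through 94.3 to 103 CPM in Malign_2 (0.332, 0.301 to 0.367). In the short-term T22 pools it stood at 50.7, 46.7, 51.4 and 39.9 CPM in Malign_3 and at 130, 142, 141 and 133 CPM in Malign_2, so that it was apart in both experiments. The short-term T22 sum was 582 CPM in Malign_3 and 526 CPM in Malign_2, again with overlapping pools but with Malign_3 above. The short-term comparison gave 7 of 34 genes higher in Malign_3 (Brca2, Bard1, Rad51d, Fanca, Fance, Fancl and Chek1) and 2 lower (Rbbp8 and Rad51b), against 15.2% and 17.8%, with Bard1 at 25.9 against 7.21 CPM. In T127, Malign_1 lay below Malign_0 in the long-term cells (206 and 245 CPM, ratio 0.841, pools apart), with 0 of 29 genes called higher and 2 lower, against 1.62% and 1.18%. These were Exo1 (0.861 against 2.37 CPM) and Chek1 (1.52 against 3.90 CPM). In the short-term T127 cells the sums were 327 and 372 CPM (0.877, pools apart), and 0 of 34 genes were called higher and 2 lower, Palb2 (0.599) and Rad54l (0.649), against 4.12% and 2.81%. By the ratio alone, without the condition on pools, 6 genes were higher and 4 lower in long-term Malign_3 (19.2% and 19.2% of all genes) and 0 higher and 11 lower in long-term Malign_1 (4.55% and 6.37%). The same rule gave 18 higher and 2 lower in short-term Malign_3 (19.4% and 21.7%) and 0 higher and 3 lower in short-term Malign_1 (5.72% and 4.24%).

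In each malignant label, Mki67-positive cells held more repair transcripts than Mki67-negative cells. Cells with at least 1 Mki67 UMI held 467 CPM in long-term Malign_0 (pools 395 to 558), against 215 CPM (200 to 225) in cells with none, a ratio of 2.17 (2.09 to 2.26). The long-term ratios were 1.75 in Malign_1, 1.87 in Malign_2 and 1.95 in Malign_3, and the short-term ratios 1.74 in Malign_2, 2.42 in Malign_3, 2.12 in Malign_0 and 2.25 in Malign_1. Pools of positive and negative cells did not overlap in any of these. Without pools 1 to 3 the long-term ratios were 2.13, 1.51, 1.77 and 2.02 in Malign_0 to Malign_3. The positive cells were deeper, with median UMIs of 30298 against 19241 in long-term Malign_0 and 45219 against 32884 in short-term Malign_0, and a deeper cell is more likely to show an Mki67 UMI. With every cell thinned to 3000 UMIs before the split, the long-term ratios were 2.61 in Malign_0 and 2.13 in Malign_1.

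The repair genes called in this contrast were all higher in Mki67-positive cells. Called genes numbered 11 of 27 tested in long-term Malign_0 (6.70% of all genes), 2 of 22 in Malign_1 (3.64%), 9 of 30 in Malign_2 (4.67%) and 7 of 27 in Malign_3 (2.88%). Without the condition on pools, the long-term counts were 20, 11, 23 and 21, against 12.6%, 12.4%, 10.6% and 8.14% of all genes. Under both conditions, called genes numbered 23 of 34 in short-term Malign_2 (7.76%), 11 of 20 in Malign_3 (6.57%), 26 of 34 in Malign_0 (10.7%) and 26 of 34 in Malign_1 (11.8%). The Malign_1 count of 2 was 1 without pool 2 or pool 4, 5 without pool 5 and 0 without pools 1 to 3, which left 15, 8 and 10 in Malign_0, Malign_2 and Malign_3. For these runs with pools left out, the shares of all genes are not given here. Chek1 was called in all 8 comparisons, Bard1, Rad54l and Brip1 in 7, and Brca1, Rad54b, Rad50, Blm and Fancb in 6. Rad51d, Rad52, Fancc, Fance, Fancf and Atm were called in none, and 26 of 35 genes had ratios above 1 in all 8. Fancd2 and Rad51c had ratios above 1 in 7, and in the other label their UMIs were all in Mki67-positive cells. The shares of all genes called lower in this contrast, and of all genes above 1 in all 8, are not given here.

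**Figure D4:**
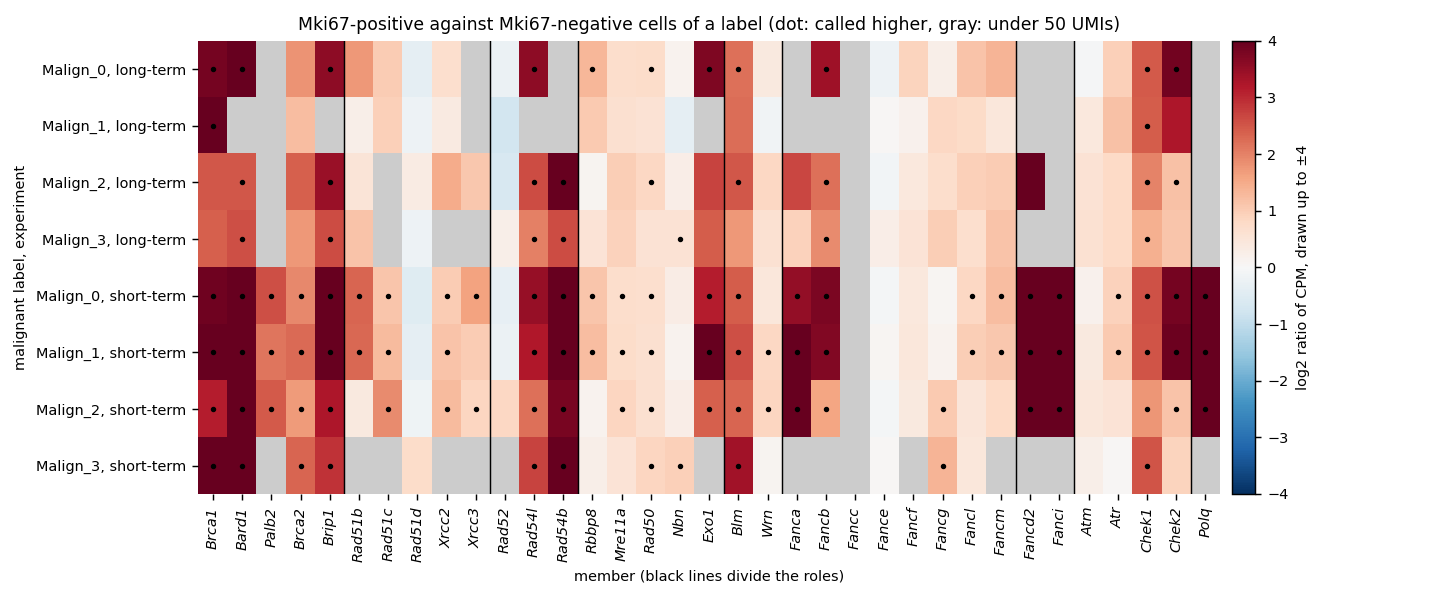
Heat map of the log2 ratio of CPM in Mki67-positive to Mki67-negative cells, with repair genes by role along the x axis and the 8 malignant labels by experiment along the y axis, on a color scale limited at both ends. Dots mark genes called higher, and gray marks genes with under 50 UMIs. Chek1 is called in 8 labels, Bard1, Rad54l and Brip1 in 7, and Atm, Fance and Rad51d in none.

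Genes of the BRCA1 and BRCA2 complexes differed widely with Mki67. In long-term Malign_0, Brca1 had a lowest, median and highest pool of 12.4, 21.4 and 26.7 CPM in Mki67-positive cells and of 0.463, 1.34 and 3.33 CPM in negative cells (14.2, 10.7 to 18.8). In short-term Malign_0 it stood at 34.4, 29.1, 21.6 and 26.2 CPM against 2.20, 1.69, 1.80 and 1.89 CPM (14.8, 12.3 to 18.0), and in short-term Malign_2 at 9.67, 14.4, 10.1 and 14.2 CPM against 0.750, 1.98, 1.79 and 0.926 CPM (8.82, 6.17 to 13.0). The classes were far apart in each of these labels. Bard1 gave 17.4 and 17.7 in the T127 label Malign_0 and 16.5 in short-term Malign_2. Brip1 in short-term Malign_2 rose from 1.80, 2.97, 3.41 and 2.78 CPM in negative to 25.0, 24.7, 25.7 and 26.2 CPM in positive cells (9.37, 7.27 to 12.3), and Brca2 was at 3.25 there.

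Rad54l, Rad54b and Fancb were called in at least 6 of 8 labels, Fanca, Fancd2 and Fanci in 3, and Fancc, Fance and Fancf in none. Rad54b in short-term Malign_2 stood at 16.6, 17.5, 16.4 and 21.4 CPM in positive and 1.20, 0.424, 2.15 and 1.67 CPM in negative cells (13.9, 9.70 to 20.6), and in long-term Malign_2 the ratio was 15.7. Fancd2 in short-term Malign_2 had 161 UMIs in the Mki67-positive cells (7.66, 7.38, 5.07 and 7.95 CPM) and none in the negative cells, at least 57.7-fold higher against a floor of 3 counts over the negative group. Its partner Fanci had 192 and 2 UMIs there, a ratio of 103 with an interval of 28.2 to 859. In short-term Malign_0, Fancd2 had 183 and 6 UMIs (77.0, 34.7 to 212) and Fanci 220 and 24 (23.1, 15.1 to 36.9). Most UMIs of this pair in these labels were therefore counted in Mki67-positive cells. Fanca gave 15.7 and Fancb 3.01 in short-term Malign_2, whereas Fance did not differ by the limit in any label (0.957 there and 0.956 in short-term Malign_0).

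End resection held genes of both kinds. Exo1 in short-term Malign_0 stood at 17.1, 18.6, 15.8 and 12.7 CPM in positive and 1.97, 1.33, 2.52 and 1.53 CPM in negative cells (8.79, 7.18 to 10.8). Rad50 differed far less, at 142, 138, 128 and 135 CPM against 87.1, 81.3, 88.2 and 83.6 CPM (1.60, 1.53 to 1.67), though its pools were also apart. Rbbp8 depended on the model. It was called higher in Mki67-positive cells of Malign_0, at 2.53 long-term and 2.16 short-term, but in Malign_2 it stood at 99.0 against 91.8 CPM long-term (1.08) and 143 against 131 CPM short-term (1.09), with long-term pools overlapping. The difference between these ratios was not tested.

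Chek2 had a like split by model. In long-term Malign_0 it went from 1.16 CPM in negative to 16.7 CPM in positive cells (14.4, 10.5 to 19.9), and in Malign_2 from 20.3 to 45.3 CPM (2.24, 1.92 to 2.61). The short-term ratios were 14.1 in Malign_0 and 2.21 in Malign_2. In the short-term pools, Mki67-negative Malign_2 cells held 20.0, 22.3, 20.6 and 18.3 CPM of Chek2 and Mki67-positive Malign_0 cells 13.1, 11.2, 11.4 and 13.5 CPM, so the T22 cells without Mki67 lay above the T127 cells with it. Chek1 gave 5.44 and 5.80 in Malign_0 and 3.93 and 3.43 in Malign_2, Blm 4.64 and 5.36 against 5.60 and 5.01, and Polq 26.1 in short-term Malign_0 and 17.8 in short-term Malign_2. Rad51d (0.783 in long-term and 0.712 in short-term Malign_0, 0.891 in short-term Malign_2) and Atm (0.967, 1.12 and 1.35) were not called in any of them.

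Proliferating immune labels also held more repair transcripts than related labels. Macro-MKI67 held 597 CPM against 291 CPM (267 to 329) in Macro-others of the long-term pools, a ratio of 2.05 (1.98 to 2.12), and 16 of 33 repair genes were called higher against 7.30% of all genes. Bard1 gave 6.62 there, Brca1 4.83, Chek2 1.17 and Fance 0.939. Tprf-MKI67 held 1121 CPM against 497 CPM in the memory T cells CD4_Tcm-TCF7 of the short-term T22 pools, a ratio of 2.25 (2.18 to 2.33), and 24 of 33 genes were called against 11.3%. Fancd2 gave 11.4, Exo1 8.40, Brip1 6.49 and Brca1 6.17 there, and Rad51d (0.809), Fance (0.960) and Atm (1.17) were not called. Fancf, called in none of the 8 malignant labels, was called higher there (1.66).

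Malignant cells were then divided by S-phase and G2/M markers after thinning to 3000 UMIs, with a lead of at least 2 UMIs of 1 list over the other deciding the class. Of 13694 cells, 4789 lay within 1 UMI of this limit, so the classes describe markers and not phases. The summed level was 579 CPM in S-marker, 547 in G2/M-marker and 293 in other T22 cells long-term, and 383, 402 and 199 CPM in T127 cells. Short-term values were 818, 666 and 396 CPM in T22 and 590, 558 and 268 CPM in T127. Both marker classes lay above the remaining cells in all 4 sets. Of 34 repair genes with at least 50 UMIs in these cells, 12 were higher in S-marker cells in all 4 sets and 6 in G2/M-marker cells, against 15.9% and 16.9% of all genes, whatever the size of the difference. The genes named next were chosen after their values were seen. Chek1 had S-marker to G2/M-marker ratios of 2.13 and 3.42 in long-term T127 and T22 and 1.86 and 3.15 short-term. Chek2 had ratios of 0.17 and 0.52 long-term and 0.33 and 0.54 short-term, so the 2 checkpoint kinases lay on opposite sides. Fancd2 (0.60, 0.46, 0.31 and 0.48) lay with Chek2, Exo1 (1.18, 2.05, 1.83 and 4.56) with Chek1, and Brca1 leaned by model, at 0.80 and 0.95 in T127 and 2.17 and 1.94 in T22.

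**Figure D5:**
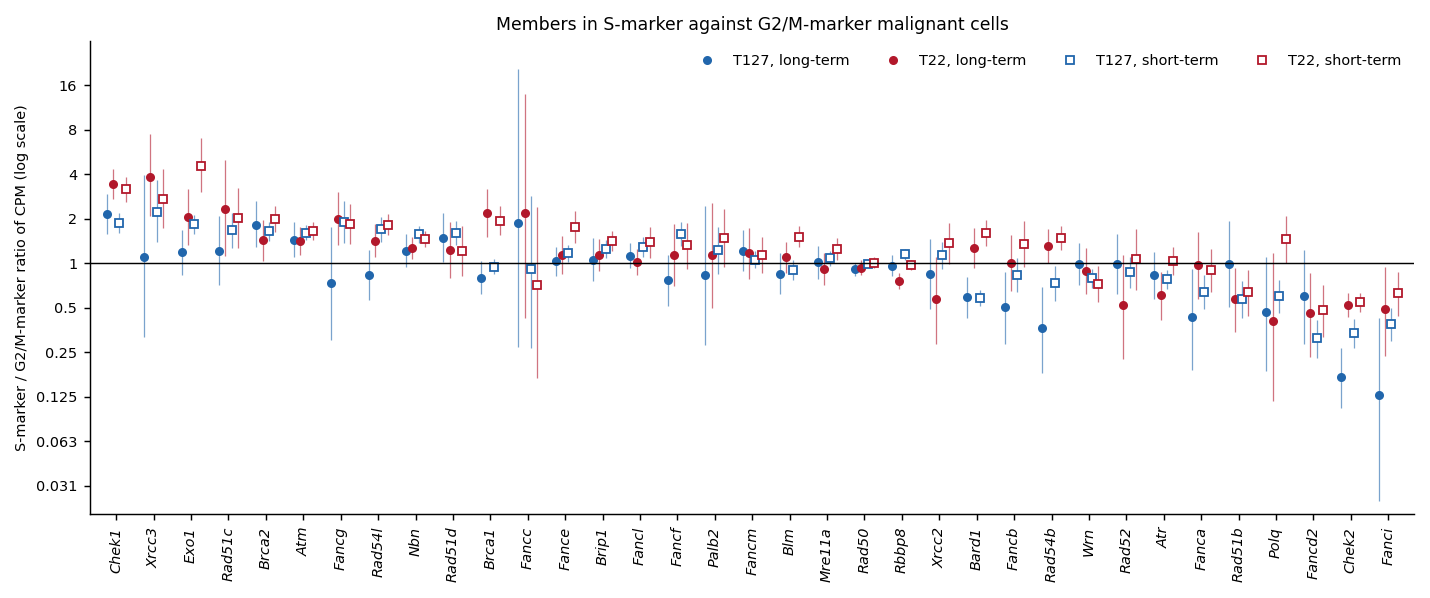
Ratio of CPM in S-marker to G2/M-marker malignant cells for each repair gene on a log axis, for the T22 and T127 cells of the long-term and short-term experiments, with 95% counting intervals as bars. Chek1 and Exo1 lie above 1 in all 4 sets (Exo1 from 1.18 to 4.56) and Chek2 below 1 in all 4 (0.17 to 0.54).

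Other genes of the pathways were read from lists. Of 32 further recombination and Fanconi genes tested and reported here in the long-term cells, 5 were called higher in T22 (Rad51ap1, Rpa2, Topbp1, Rad17 and Mcm8) and 1 lower (Babam1), with a median log2 ratio of 0.38. Topbp1, which activates ATR, stood at 48.4 against 23.6 CPM, Babam1, of the BRCA1-A complex, at 22.6 against 46.3 CPM, and Usp1, which removes ubiquitin from FANCD2, was not called at 36.9 against 41.4 CPM. Of 12 end joining and end protection genes, 1 was called higher and 1 lower (median log2 -0.04), and Xrcc5, Xrcc6, Prkdc and Rif1 were not called (0.97, 1.06, 0.98 and 0.85). The S-phase list had 8 of 15 and the G2/M list 14 of 15 genes called higher in T22, with medians of 0.79 and 1.45. Over all genes of this contrast, 26.5% were called higher and 24.3% lower, and the counts of the recombination and end joining lists lay below these shares. In the Mki67 contrast the end joining list had 0 of 11 to 12 genes called higher in 7 of 8 malignant labels and 2 of 7 in short-term Malign_3, where between 2.88% and 11.8% of all genes were called, a share that comes to about 1 gene or none in a list of this length.

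Chek2 also differed between the experiments in cells that were not malignant, and this comparison was chosen after its values were seen. In the label CD16-CDKN1C it stood at 25.5, 24.1, 22.1 and 17.1 CPM in the short-term T22 pools and at 2.06, 2.19, 4.65 and 4.86 CPM in the short-term T127 pools. In Macro-M2 it was 23.0, 19.0, 19.0 and 17.8 CPM against 4.71, 4.22, 3.16 and 3.28 CPM, and in Macro-MKI67 36.7 against 15.6 CPM. The pools of these labels were apart, in the same order as the malignant cells of the same captures. Endothelial cells (19.5 and 17.7 CPM) and the label CD14-IL1B (7.15 and 8.46 CPM) did not show this gap. Whether free RNA of malignant cells contributed was not tested.

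Detection per cell moved with depth. With cells thinned to 3000 UMIs, 47.5% (45.7 to 49.4) of long-term Malign_0 cells and 62.6% (59.9 to 65.2) of Malign_2 cells held at least 1 UMI of any repair gene, against 95.6% and 97.9% unthinned. The short-term shares after thinning were 71.1% in Malign_2 and 58.5% in Malign_0, and 89.7% in Tprf-MKI67. Since every label expresses some of these genes, no label served as a background for these shares.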

How the data were processed

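Cells of dissociated tumors were tagged, pooled, depleted of dead cells and captured with 10x Genomics 3' v3.1 chemistry in 16 pools. The deposited tables hold whole-number counts of UMIs per gene and cell, which the authors made with Cell Ranger 6.0.0 on GRCm38, counting intronic reads, and filtered by them for cells of low gene number or high mitochondrial share and for doublets called by Scrublet. The authors' cell labels in the same tables were used, and reads of overlapping or near-identical genes could have been split or lost in their counting.

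Here counts were summed per gene, label and pool and divided by the total UMIs of the same cells (CPM) in Python 3.11.15 with numpy 2.4.6, scipy 1.17.1 and pandas 2.3.3. Poisson and Clopper-Pearson intervals (95%) were exact, and those of ratios were exact conditional binomial intervals. Labels needed 50 cells, each pool in a range 10 cells and each called gene 50 UMIs. The calling step was checked on simulated counts. Values per pool are given for the gene of each role called with the largest ratio in T22 against T127, or else with the most UMIs, and other lists are named by up to 4 of their most counted genes, with 1 item not reported here. Further examples were chosen after their values were seen. The repair genes and lists were chosen with earlier results of these data known. Alternatives were another minimum of UMIs, another fold, other cell filters, every copy of shared barcodes, each pool left out and thinning to 3000 UMIs (seed 7). The organism field of the records names human, whereas the genes are those of mouse. Sequences of the genes were not used here.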

Additional observations from a re-analysis of the deposited data

Results flagged for a closer look

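Of 176 groups of pools examined, 11 had a pool set apart from the others by Dixon's limit, where chance gives about 1 in 20. In the short-term T22 pools, the summed repair level of Macro-others in pool 1 was 379 CPM, against 415 to 423 CPM in the other pools. Among long-term T127 malignant cells, Rad51c stood at 3.01 CPM in pool 7 (others 1.5 to 2.16), Brip1 at 0.721 CPM in pool 3 (others 1.70 to 2.30) and Chek2 at 1.5 CPM in pool 8 (others 2.24 to 2.74). Among long-term T22 malignant cells, Rad52 stood at 5.40 CPM in pool 6 (others 2.34 to 3.28) and Atm at 26.4 CPM in pool 8 (others 16.9 to 20.4). In the short-term T22 malignant cells, Fanca stood at 4.85 CPM in pool 4 (others 3.49 to 3.64) and Atm at 27.1 CPM in pool 3 (others 30.6 to 31.1). In the short-term T127 malignant cells, Xrcc3 stood at 0.994 CPM in pool 1 (others 0.771 to 0.794), Rad54l at 3.81 CPM in pool 1 (others 2.68 to 2.87) and Fancl at 8.17 CPM in pool 4 (others 9.71 to 9.94).

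In the short-term pools, Rad52 had a ratio of Mki67-positive to Mki67-negative cells of 1.57 in T22 and of 0.821 in T127 malignant cells, with all pools on the side of their model. Within T22, it was 1.79 in Malign_2 and 0.57 (0.177 to 1.60) in Malign_3, the latter on 6 and 13 UMIs. The difference between these ratios was not tested.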

How the results depend on the processing

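No direction of a level, ratio or count turned under any alternative run. Rad50 was the gene left out. Its T22 to T127 ratios of 1.06 and 0.80 lay below those of the sums, so that run could not turn them. No run without Rbbp8, Nbn or Chek2 is given, so the direction without these genes was not checked. The ratio of T22 to T127 stayed between 1.67 and 1.72 long-term and between 1.49 and 1.54 short-term when each pool was left out. Without the deepest 5% of cells, the level was 216 CPM in long-term Malign_0, 463 in short-term Malign_2, 345 in Malign_0 and 293 in Malign_1, and the Mki67 ratios were 1.46, 1.94 and 1.94 in these short-term labels. As a mean over cells, the levels were 233 CPM in long-term Malign_0, 347 in short-term Malign_0 and 297 in short-term Malign_1. Without Rad50, the long-term levels of Malign_0 to Malign_3 were 180, 144, 335 and 299 CPM, the short-term levels 451 in Malign_2, 490 in Malign_3, 273 in Malign_0 and 237 in Malign_1, the T22 to T127 ratios 1.93 and 1.78, and the Mki67 ratios 2.34 and 2.57 in short-term Malign_0 and Malign_1. With Mki67 at 2 or more UMIs, the ratio was 2.22 in long-term Malign_3 and 1.86 in short-term Malign_2. Thinning to 3000 UMIs gave Mki67 ratios of 2.61 and 2.13 in long-term Malign_0 and Malign_1 and 1.86 in short-term Malign_2.

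Counts of called genes moved more. With another fold, another minimum of UMIs or pools left out, the number of repair genes tested is not given here. The shares of all genes called in those runs are not given either. A higher minimum of UMIs also leaves fewer genes to be tested, so these counts are no result about the repair genes. At 2-fold, 0 long-term and 1 short-term gene was lower in T22. With no minimum of UMIs, 17 genes were called in short-term Malign_3. With a minimum of 200, the Mki67 contrast called 5, 0, 5 and 2 genes in long-term Malign_0 to Malign_3, 14 in short-term Malign_2, 2 in Malign_3 and 17 in short-term Malign_1. Without the condition on pools, added after seeing the data, 3 genes were lower in long-term T22, and 20, 11, 23 and 21 were higher in Mki67-positive cells of long-term Malign_0 to Malign_3. Without long-term pools 1 to 3 together, also added, 0 genes were lower in T22 and 0 were called in Malign_1, whose count ranged from 1 to 5 when single pools were left out. Over all cells, Fancc and Xrcc3 had the fewest UMIs. No paired test was made, because no result comes from a test. Compared within pools, T22 lay above T127 in 8 of 8 long-term pools.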
